A study of Homo sapiens with 14 samples.

Results

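Translation efficiency (TE) within ADAR1 knockdown (KD) cells was examined from ribosome profiling (Ribo-seq) and RNA-seq of the same treatment. The deposited table lists 21574 genes, and the 7320 genes with at least 5 RPKM (reads scaled to the length of the transcript and the size of the library) in the KD RNA-seq library were kept. TE of a gene was taken as log2 of the ratio between Ribo-seq RPKM plus 1 and RNA-seq RPKM plus 1, separately for each of the 2 KD Ribo-seq libraries, with the single KD RNA-seq library as the denominator of both. C2orf74 and ARMCX6, at 4.99 RPKM each in KD RNA-seq, fell just outside this threshold with log2 TE of -0.61 and 0.13 for C2orf74 and -0.90 and -1.39 for ARMCX6, in replicate 1 and 2 respectively. IRS1 and FRMD8P1, both at 5.002 RPKM, fell just inside it, with -1.43 and -1.33 for IRS1, while FRMD8P1 was listed at 0 in replicate 1 and had 0.693 RPKM in replicate 2.

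The cells were labelled HepG2 (a hepatocellular line) and were stably transfected with siADAR1 (KD) or with scrambled siRNA (control). KD comprised 1 RNA-seq library and Ribo-seq replicates 1 and 2, and control the same 3 kinds of library. The Ribo-seq replicates are described as biological by the study, without detail on the cultures behind them. The p-values and standard errors (SE) below measure the spread between these Ribo-seq libraries only. The single RNA-seq library of each condition was assumed to vary like them.

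In ribosome profiling, an mRNA is digested with nuclease and the short fragments covered by ribosomes are sequenced, so that the reads on a gene follow both the amount of its mRNA and the number of ribosomes on it. Dividing by RNA-seq leaves an estimate of the ribosome reads per mRNA, here averaged over the whole transcript with its UTRs. Known examples of control at this step are ferritin mRNAs, held back by iron regulatory proteins at a hairpin near their 5′ end, and mRNAs of the translation machinery, which start with a pyrimidine tract (TOP mRNAs) and follow growth signals. Replication-dependent histone mRNAs are a special case, since they end in a stem-loop in place of a poly(A) tail. RPKM scales each library to its own total, and a log2 TE of 0 therefore has no absolute meaning. Genes are described here relative to the median gene.

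The elements that several of the most extreme genes carry are shown first. For the histones, whose TE was far above that of other genes, the end of the 3′ UTR is given, with both arms of the stem in capitals around a loop of 4 bases.
HIST1H3B, chr6:26031818-26031847, minus strand: acccaaaGGCTCTtttcAGAGCCacccact
HIST1H4H, chr6:26285354-26285381, minus strand: aaccaaaGGCCCTtttcAGGGCCgccca
HIST1H1C, chr6:26055968-26055994, minus strand: cccaaaaGGCTCTtttcAGAGCCacca
HIST3H2A, chr1:228645065-228645092, minus strand: acataaaGGCTCTtttcAGAGCCaccta
For the iron genes, which spanned from among the lowest to well above the median, the iron-responsive element of both ferritins and one of the 4 found in TFRC are given, with the unpaired C and the loop of 6 bases in capitals.
FTH1, 5′ UTR, chr11:61735046-61735074, minus strand: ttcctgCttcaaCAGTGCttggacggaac
FTL, 5′ UTR, chr19:49468592-49468620, plus strand: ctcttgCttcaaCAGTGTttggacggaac
TFRC, 3′ UTR, chr3:195777334-195777362, minus strand: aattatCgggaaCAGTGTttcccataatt
Sequences and coordinates are those of GENCODE canonical transcripts on GRCh37 (hg19), the build used by the authors, read 5′ to 3′ on the strand of the gene.

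The target of the siRNA and the identity of the cells were checked first. ADAR, which encodes the editing enzyme ADAR1, had 54.8 RPKM in control and 15.4 in KD RNA-seq. In Ribo-seq replicate 1 it had 43.6 RPKM in control and 8.73 in KD, whereas in replicate 2 it had 55.5 in control and 44.03 in KD. The reduction of ADAR in KD was thus large in RNA-seq and in Ribo-seq replicate 1 and small in Ribo-seq replicate 2. The log2 TE of ADAR in KD was -0.75 in replicate 1 and 1.46 in replicate 2. The latter sets a Ribo-seq library with a small reduction of ADAR against an RNA-seq library with a large one. It is therefore not read as higher translation of ADAR. Markers of HepG2 were close to absent in all 6 libraries. Of 16 such markers, 15 stayed under 1 RPKM in every library and APOA2, a lipoprotein component, reached 2.12 RPKM in one library. Their summed level was between 0.312 and 2.64 RPKM per library, and AFP, APOB, TTR, FGB, FGG and AHSG were at 0 in all of them. KRT7, a keratin of simple epithelia, had 618 RPKM in KD RNA-seq, KRT18 331 and VIM 449. These 3 genes are on neither list of markers and were chosen after their values were seen. Of 8 markers of other cell types, COL1A1 and COL3A1 (fibrillar collagens) were measured, at 40.4 and 6.14 RPKM in KD RNA-seq, and the other 6 stayed under 1 RPKM in every library. The label HepG2 was therefore not borne out by its markers, and the cells are called KD and control cells below.

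The Ribo-seq replicates differed from each other in which genes they contained. Over the whole table, 43 genes other than small RNAs had at least 5 RPKM in both replicate 2 libraries, control and KD, and under 0.5 RPKM in both replicate 1 libraries, and 24 of these 43 were also under 0.5 RPKM in both RNA-seq libraries. TSPAN7, a membrane protein, had 437 and 391 RPKM in control and KD of replicate 2 and 0 in both libraries of replicate 1, with at most 0.0136 in RNA-seq. RELN, an extracellular glycoprotein of neurons, had 465 and 120 RPKM in replicate 2 and at most 0.0868 in the other 4 libraries. In the other direction, 30 genes had at least 5 RPKM in replicate 1 and under 0.5 in replicate 2, and 26 of them had at least 5 RPKM in both RNA-seq libraries. SPINK13, a protease inhibitor, had 144 and 186 RPKM in replicate 1 and was listed at 0 in both libraries of replicate 2, although KD RNA-seq had 48.9.

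A stretch of chromosome 6 behaved in the same way. All 12 genes tested with a matched transcript from TRIM26 to CUTA (chr6:30152232-33385884) were listed at 0 in both replicate 2 libraries. They had between 4.39 and 951 RPKM in KD replicate 1 and between 6.95 and 892 RPKM in KD RNA-seq. The ends of the stretch were set by genes at 0, and rows without a matched transcript were not counted. TUBB, a beta-tubulin, was among them with 951 RPKM in KD replicate 1. PGBD1 and BAK1, which lie on either side of this stretch, had 4.38 and 6.64 RPKM in KD replicate 2. In total 28 of the 7320 genes were listed at 0 in both replicate 2 libraries. The genes tested are those with RNA-seq reads by the rule, so that their presence in RNA-seq is no finding. Whether replicate 2 came from the same material as the RNA-seq libraries was not tested, and its TE values depend on that. Every result is given for each replicate on its own.

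**Figure D1:**
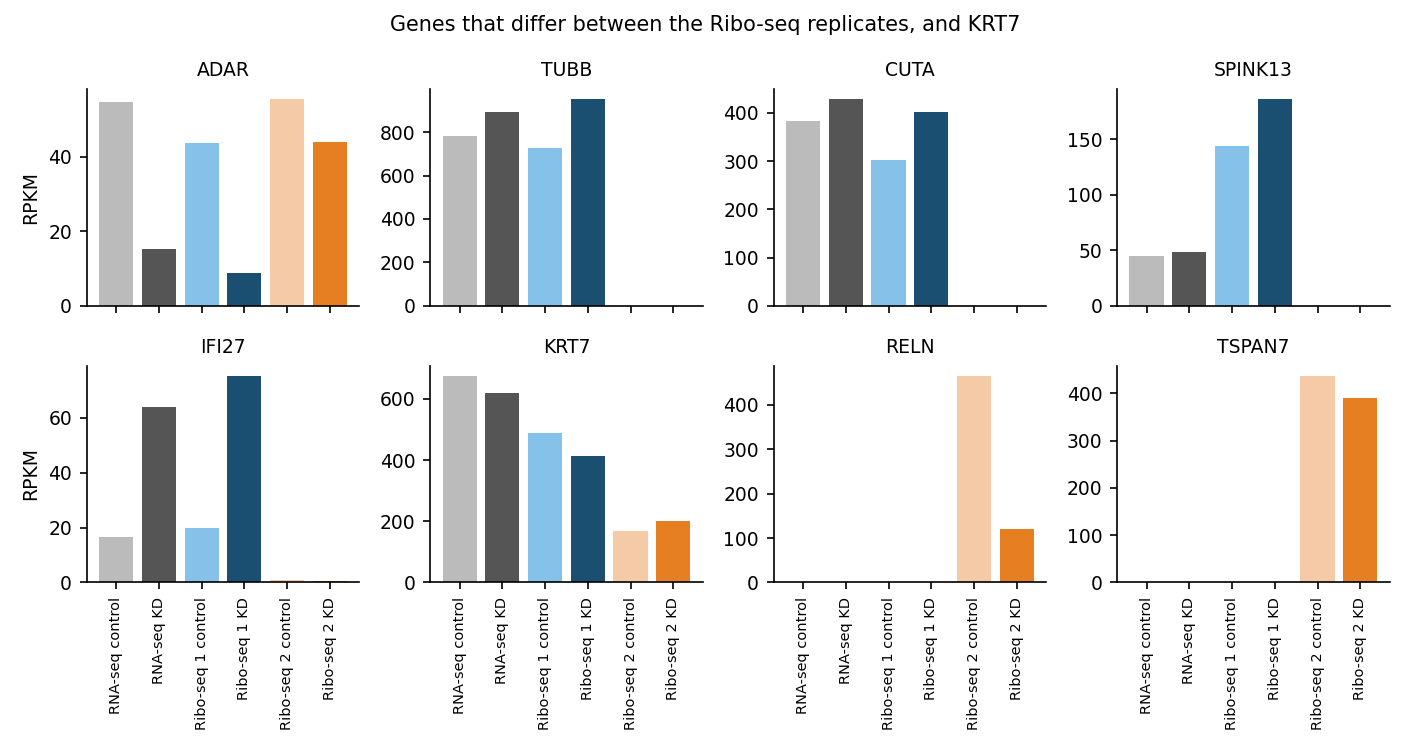
Bars show RPKM of 8 genes in the 6 RNA-seq and Ribo-seq libraries, with 1 library per bar. ADAR was lower in KD than in control in RNA-seq and Ribo-seq 1 by far more than in Ribo-seq 2, TUBB, CUTA and SPINK13 were at 0 in Ribo-seq 2, IFI27 was at 0.638 in KD of Ribo-seq 2, and RELN and TSPAN7 were seen in Ribo-seq 2 while the other libraries held at most 0.0868.

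The Ribo-seq libraries were shallow. Depths relative to RNA-seq were read from the smallest steps of the RPKM values, and gave whole reads for 99.8% of the genes tested (within 0.01 reads). KD replicate 1 was 21.5-fold and KD replicate 2 12.6-fold shallower than KD RNA-seq. The genes tested held an estimated 874272 and 1228574 reads in replicate 1 and 2 and 27711888 in RNA-seq, with medians of 57, 91 and 1867 reads per gene. Fewer than 10 reads stood behind 8.80% of the genes in replicate 1 and 3.34% in replicate 2, so that low values of TE are less certain than high ones.

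Across the 7320 genes, TE varied over a wide range in both replicates. The median log2 TE was -0.71 in replicate 1 and -0.82 in replicate 2, with SDs of 1.39 and 1.17, and the central 90% of genes lay between -2.76 and 1.57 in replicate 1 and between -2.38 and 1.07 in replicate 2. The replicates shared an order of genes to a considerable degree, with Pearson's r = 0.75 and Spearman's rho = 0.77 across the 7320 genes. Genes are not independent replicates, and both ratios share their RNA-seq denominator, which by itself gives such a relation. After subtraction of each median the replicates differed by over 1 on the log2 scale in 20.2% of the genes, and the median absolute difference was 0.52.

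To ask which genes stood apart beyond this spread, limma was fitted on log2(RPKM + 1) of the 6 libraries, each centred on its median. The estimates of limma are therefore relative to the difference between the library medians, a log2 TE of -0.57, and not to the median TE of the genes given above. No gene passed a Benjamini-Hochberg adjusted p of 0.05 in limma, neither above this zero (0%) nor below it (0%), while 972 genes had an unadjusted p under 0.05, and the smallest adjusted p was 0.0966. The 6 libraries leave 2 residual degrees of freedom. When any one of the 4 Ribo-seq libraries was left out, between 24 and 28 genes passed above it, of which 15 to 19 were replication-dependent histones, and between 2 and 31 below it. Among the 2121 genes with over 100 reads in each KD library, an alternative chosen after the data were seen, 9 passed above and none below, and these were 7 histone rows, SEC61G and SNHG12. High and low TE are therefore given as a description, with a simple rule chosen after the data were seen. A gene is called high where its log2 TE was at least 1 above the median (at least 2-fold) in both KD replicates, and low where it was at least 1 below in both. This held for 1109 genes (15.2% of the 7320) and 732 genes (10%), respectively, and these shares are the background for every list below.

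**Figure D2:**
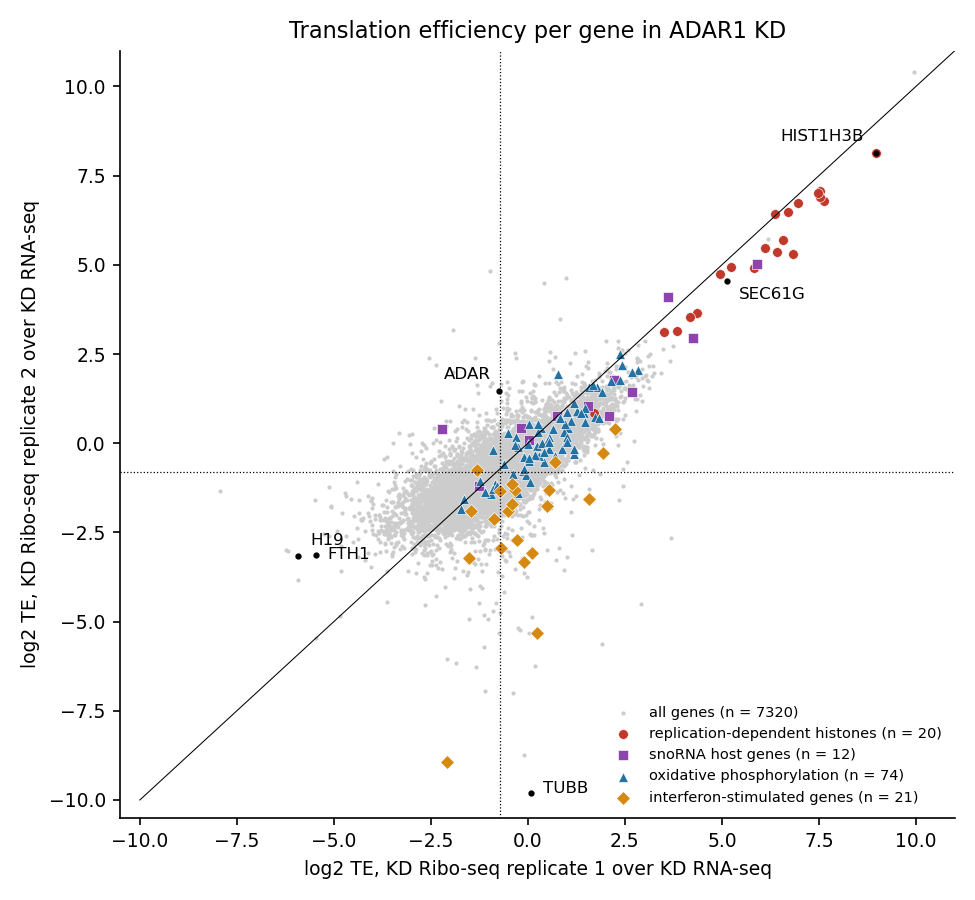
Each point is 1 of 7320 genes, with log2 TE in KD replicate 1 on the x axis and in KD replicate 2 on the y axis (no unit), dotted lines at the 2 medians and a solid line of equality. Replication-dependent histones lie at the upper right, up to 8.96 and 8.13, while most interferon-stimulated genes lie below the line and TUBB lies at the bottom, as it was listed at 0 in replicate 2.

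Replication-dependent histones carried by far the most ribosome reads for their RNA-seq level among the lists. All 20 members tested were high in both replicates, and the median log2 TE of the list was 6.39 in replicate 1 and 5.42 in replicate 2, which is 7.10 and 6.24 above the median gene. In RNA-seq they had between 5.14 and 72.6 RPKM (median 9.02), in Ribo-seq replicate 1 between 128 and 3083 (median 921) and in replicate 2 between 69.6 and 1966 (median 590). The lowest Ribo-seq value was thus above the highest RNA-seq value in replicate 1 and within its range in replicate 2.

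HIST1H3B, which encodes the core histone H3, had 5.19 RPKM in RNA-seq, 3083 in replicate 1 and 1737 in replicate 2, a log2 TE of 8.96 and 8.13. The limma estimate, relative to the difference between library medians, was 9.11 ± 0.88 (SE) with an adjusted p of 0.0966. HIST1H1C, a linker histone, was the member with the highest RNA-seq level, with 72.6 RPKM there and 2255 and 1966 in Ribo-seq, so that its log2 TE was 4.94 and 4.74. HIST3H2A, an H2A gene outside the large cluster of chromosome 6, was the lowest member at 1.71 and 0.84, with 38.4 RPKM in RNA-seq and 128 and 69.6 in Ribo-seq. HIST1H2AE, an H2A gene near the middle of the list, had 6.41 and 5.36. These values rest on 89 to 2318 reads in replicate 1 and 83 to 3461 in replicate 2.

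Only 20 of 67 replication-dependent histone rows of the table passed the RNA-seq threshold, and the filter acts on the level that forms the denominator. Of the 47 others, 31 had more RPKM in both KD Ribo-seq libraries than in KD RNA-seq, 26 had at least 10 RPKM in both Ribo-seq libraries, and 6 were at 0 in all 3 libraries. HIST1H4E, an H4 gene, had the largest Ribo-seq value among them, 2087 RPKM in replicate 1 and 1476 in replicate 2, with 1.67 in RNA-seq.

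The stem-loop shown above was searched as an arm GGNNNN, a loop TNTN and a second arm that is the reverse complement of the first, in the 3′ UTR on the coding strand. It was found in 16 of 18 histone transcripts with a sequence and in 0.234% of the other coding transcripts tested. The RNA-seq protocol in the labels isolates poly(A) mRNA, and the part of this selection in the histone values was not tested. Other histone genes, which are not on that list and were chosen after the data were seen, were near the median. In 10 of 12 such genes tested, the median log2 TE was -0.58 in replicate 1 and -0.75 in replicate 2, with 2 high and none low. H2AFZ, a variant H2A, had 102 RPKM in RNA-seq and 232 and 176 in Ribo-seq (log2 TE 1.18 and 0.78), and H3F3B, a variant H3, had 68.6 in RNA-seq and 41.6 and 38.4 in Ribo-seq (-0.71 and -0.82). The 2 kinds of histone gene do not overlap in either replicate apart from HIST3H2A in replicate 2, whose 0.84 lay under the 1.08 of H2AFV.

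**Figure D3:**
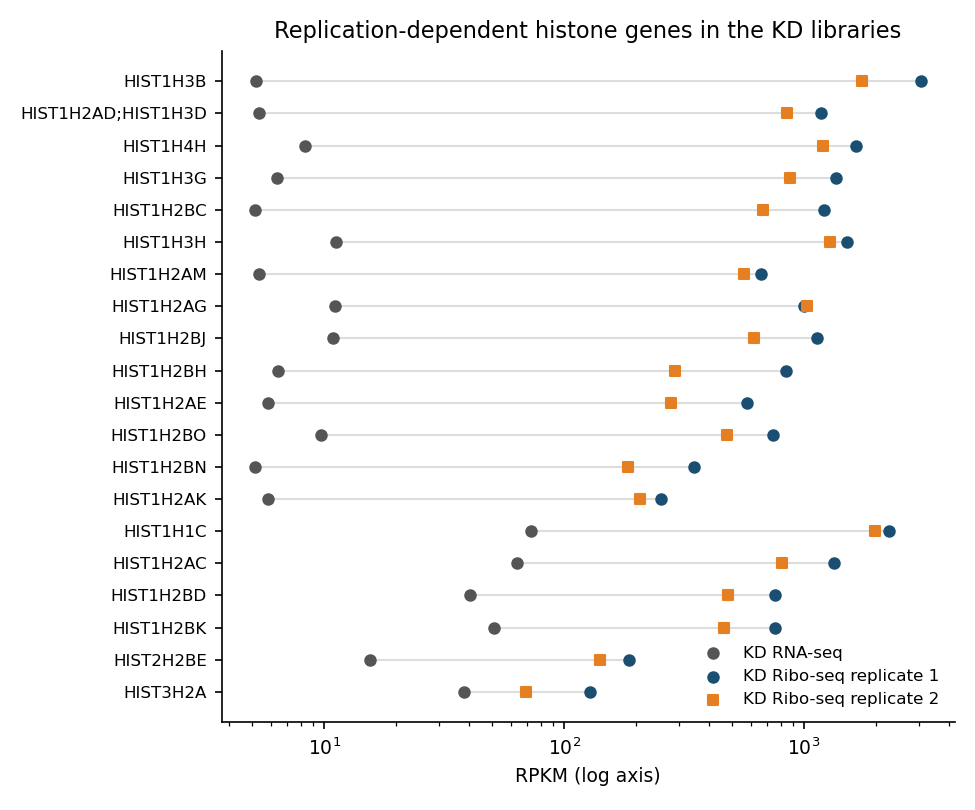
RPKM on a log axis for the 20 replication-dependent histone rows tested, 1 row per gene, ordered by mean log2 TE. Points show the single KD RNA-seq library and the 2 KD Ribo-seq libraries, and in every row both Ribo-seq points lie to the right of the RNA-seq point, from 128 and 69.6 against 38.4 RPKM in HIST3H2A to 3083 and 1737 against 5.19 in HIST1H3B.

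Host genes of small nucleolar RNAs were the next list. Their spliced RNAs are mostly noncoding and are known substrates of nonsense-mediated decay, which depends on translation. Of 12 tested, 8 were high and none was low, with a median log2 TE of 1.82 in replicate 1 and 0.91 in replicate 2. SNHG12 had 8.36 RPKM in RNA-seq and 563 and 302 in Ribo-seq, a log2 TE of 5.91 and 5.02. GAS5, a host gene with a pyrimidine tract at its start, had 13.5 in RNA-seq and 175 and 249 in Ribo-seq (3.60 and 4.11), and SNHG1 had 15.6, 317 and 128 (4.26 and 2.96). The lowest row was RCC1 merged with SNHG3, at -1.26 and -1.19. Small nucleolar RNAs lie within these rows, and the counting of the authors assigned reads to them and to their hosts alike, so that reads of the small RNAs themselves cannot be told apart from footprints.

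Long noncoding RNAs that are not such hosts differed between the replicates, with a median 1.17 below the median gene in replicate 1 and 0.77 above it in replicate 2. H19, an imprinted noncoding RNA, had the highest RNA-seq level of all genes tested, 11734 RPKM, and 193 and 1313 RPKM in Ribo-seq, a log2 TE of -5.92 and -3.16. NEAT1, the RNA scaffold of nuclear paraspeckles, had 161 RPKM in RNA-seq and 3.24 and 26.9 in Ribo-seq (-5.25 and -2.53). Both were low, and none of the 8 tested was high. TUG1, near the middle of the list, had -2.45 and -0.01, and CRNDE, the highest, had 5.99 RPKM in RNA-seq and 3.80 and 21.9 in Ribo-seq (-0.54 and 1.71). The latter 2 thus lay above the median gene in replicate 2.

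Among the remaining rows without a protein in the reference tables, the row of LOC100507412 and RN5-8S1, a ribosomal RNA, had the highest ratio of all. It had 15.5 RPKM in RNA-seq and 16369 and 22235 in Ribo-seq, a log2 ratio of 9.96 and 10.40. SNORA18, a small nucleolar RNA, had 5.27, 453 and 331 RPKM (6.18 and 5.73), with 21 reads in RNA-seq. These RNAs are not mRNAs, and their ratios are not a measure of translation. At the low end, MIR4767, MIR1281 and MIR3916 were listed at 0 in both KD Ribo-seq libraries with 43.3, 27.6 and 6.69 RPKM in RNA-seq, so that no ratio is given. Of 21 rows on the list of small RNAs, all named for miRNAs and some with their host RNA, 9 were low and 3 were high. A median of 2 reads stood behind them in replicate 1.

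Iron genes included some of low and some of high TE. FTH1, the ferritin heavy chain, had 3206 RPKM in RNA-seq and 71.8 and 361 in Ribo-seq, a log2 TE of -5.46 and -3.15, and was among the 15 lowest protein-coding genes. FTL, the ferritin light chain, had 2244 in RNA-seq and 105 and 1064 in Ribo-seq (-4.40 and -1.08), and was therefore far below the median in replicate 1 and near it in replicate 2. TFRC, the transferrin receptor, whose elements lie in the 3′ UTR, was the highest of the list, with 23.0 RPKM in RNA-seq and 145 and 73.2 in Ribo-seq (2.60 and 1.63). Of 8 iron genes tested, 3 were high and 1 was low. SDHB, an iron-sulfur subunit of succinate dehydrogenase, had 0.84 and 0.71.

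The element itself was searched as C, 5 bases, CAGTGN and 5 bases that pair with the first 5 (G with T allowed), on the coding strand. It was found in the 5′ UTR of 5 of 6858 coding transcripts (0.0729%), which were FTH1, FTL, ADAR, DUSP9 and ZER1, and in the 3′ UTR of 0.685% of them. A match is a description of the letters and not a binding site. FTH1 has 25 named pseudogenes, and since the authors kept uniquely aligned reads, its level in both assays is uncertain.

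Within the translation machinery itself, the median of cytosolic ribosomal proteins lay on different sides of the median gene in the replicates. The 76 genes tested had a median log2 TE of -1.22 in replicate 1, which is 0.52 below the median gene, and of -0.13 in replicate 2, which is 0.69 above it. The list held 11 high genes (14.5%) and 6 low ones (7.89%), close to the background. RPLP1, an acidic stalk protein, had 3050 RPKM in RNA-seq and 210 and 1376 in Ribo-seq (log2 TE -3.85 and -1.15). RPS29, a small subunit protein, had 121, 71.5 and 849 RPKM (-0.75 and 2.80), and RPL22 had 36.5, 5.46 and 197 (-2.54 and 2.40), so that both were above the median in replicate 2 and at or below it in replicate 1. RPS27L, a paralog of RPS27, was the highest member at 2.20 and 1.68, and RPL10, of the large subunit, the lowest at -3.28 and -1.96. Proteins of the small subunit (28 genes) had medians of -0.29 and 0.999 relative to the median gene and those of the large subunit (47 genes) of -0.75 and 0.47.

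Ribosomal protein genes have many processed pseudogenes. Median log2 TE relative to the median gene was -0.09 and 0.48 in the 22 genes with up to 4 named pseudogenes, -0.43 and 0.11 in the 21 genes with 5 to 14, and -0.76 and 0.87 in the 29 genes with at least 15. The start of the transcript was C and at least 4 pyrimidines in 52 of 72 ribosomal protein transcripts, against 6.43% of all genes tested with a transcript. It is shown for members of the translation machinery, with the pyrimidine run from the first base in capitals.
RPS29, chr14:50053079-50053098, minus strand, log2 TE -0.75 and 2.80: CTTCCTTTTacctcgttgca
RPLP1, chr15:69745157-69745176, plus strand, log2 TE -3.85 and -1.15: CCCCTTTCCTCagctgccgc
EEF2, chr19:3985442-3985461, minus strand, log2 TE -2.01 and -1.20: CTCTTCCgccgtcgtcgccg
GLTSCR2, chr19:48248803-48248822, plus strand, log2 TE -3.85 and -2.69: CTTCCTTTgacaagatggcg
RPS27L, chr15:63449657-63449676, minus strand, log2 TE 2.20 and 1.68: gcagatcgcttgcagcttgc
All 447 genes tested with such a start had a median of -0.01 and 0.18 relative to the median gene, and 6506 others 0.02 and -0.01. In genes with this start 18.6% were high and 10.96% low, against 15.2% and 9.67% of the others.

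Elongation factors had a median log2 TE of -1.22 and -1.20, below the median gene in both replicates. Of 11 genes, 4 lay above the median gene in both replicates, 2 were low and none was high. GFM1, a mitochondrial factor, was the highest with 12.2 RPKM in RNA-seq and 29.8 and 12.1 in Ribo-seq (1.22 and -0.02). EEF2, the translocation factor, had 1996 RPKM in RNA-seq and 496 and 869 in Ribo-seq (-2.01 and -1.20), and EEF1G, of the EEF1 exchange complex, was the lowest with -2.85 and -1.91. Of the 13 other TOP mRNAs, 1 was high and 2 were low. GLTSCR2, a nucleolar protein, was lowest with 234 RPKM in RNA-seq and 15.3 and 35.4 in Ribo-seq, and PABPC1, the poly(A)-binding protein, had -2.45 and -1.37. Initiation factors, in contrast, had 9 high genes and none low among 38, led by EIF4A2, an RNA helicase of the cap-binding complex, with 15.4 RPKM in RNA-seq and 145 and 92.0 in Ribo-seq (3.16 and 2.51). The EIF4A2 row also holds small nucleolar RNAs of its introns. EIF4B, its cofactor, was lowest with -3.04 and -1.03.

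The medians of oxidative phosphorylation and proteasome genes lay above the median gene in both replicates. Oxidative phosphorylation genes had a median log2 TE of 0.53 and 0.07, which is 1.24 and 0.89 above the median gene, and 29 of 74 (39.2%) were high against 1 low. COX6C, a subunit of cytochrome oxidase, was highest with 28.4 RPKM in RNA-seq and 207 and 122 in Ribo-seq (2.83 and 2.07), and NDUFB7, of complex I, was lowest with 672, 205 and 187 RPKM (-1.71 and -1.84). All 5 complexes had a positive median relative to the median gene in both replicates, with 0.76 and 0.84 in complex III (9 genes) and 1.70 and 1.24 in ATP synthase (15 genes). Proteasome subunits had a median of 0.94 and 0.11, with 16 of 34 (47.1%) high and none low. The alpha subunits of the 20S core (7 genes) had medians of 2.49 and 1.27 and the beta subunits (8 genes) of 0.82 and -0.05. The ATPases of the 19S cap (5 genes) had 0.35 and -0.92, which is 1.06 above the median gene in replicate 1 and 0.10 below it in replicate 2. PSMA2, an alpha subunit, was highest, with 19.7 RPKM in RNA-seq and 232 and 128 in Ribo-seq, and PSMD3, of the 19S cap, was lowest with -0.87 and -1.84.

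Aminoacyl-tRNA synthetases, which charge tRNAs, and heat shock proteins showed the same placement. Of 19 synthetases, 9 (47.4%) were high and none was low, from EPRS with 16.7 RPKM in RNA-seq and 82.4 and 41.5 in Ribo-seq (2.24 and 1.26) to FARSA with -0.97 and -1.77. Of 21 heat shock proteins and chaperonins, 10 (47.6%) were high and none was low. CCT8, a chaperonin subunit, was highest with 2.15 and 1.29, and HSPB1, a small heat shock protein, was lowest with -1.06 and -1.88. DEAD-box and DEAH-box helicases had 11 of 38 high and none low, cell cycle and DNA replication genes 11 of 40 and none, and mitochondrial ribosomal proteins 19 of 68 and 1. CDK1, the mitotic kinase, was the highest cell cycle gene with 8.00 RPKM in RNA-seq and 69.5 and 26.4 in Ribo-seq (2.97 and 1.61).

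**Figure D4:**
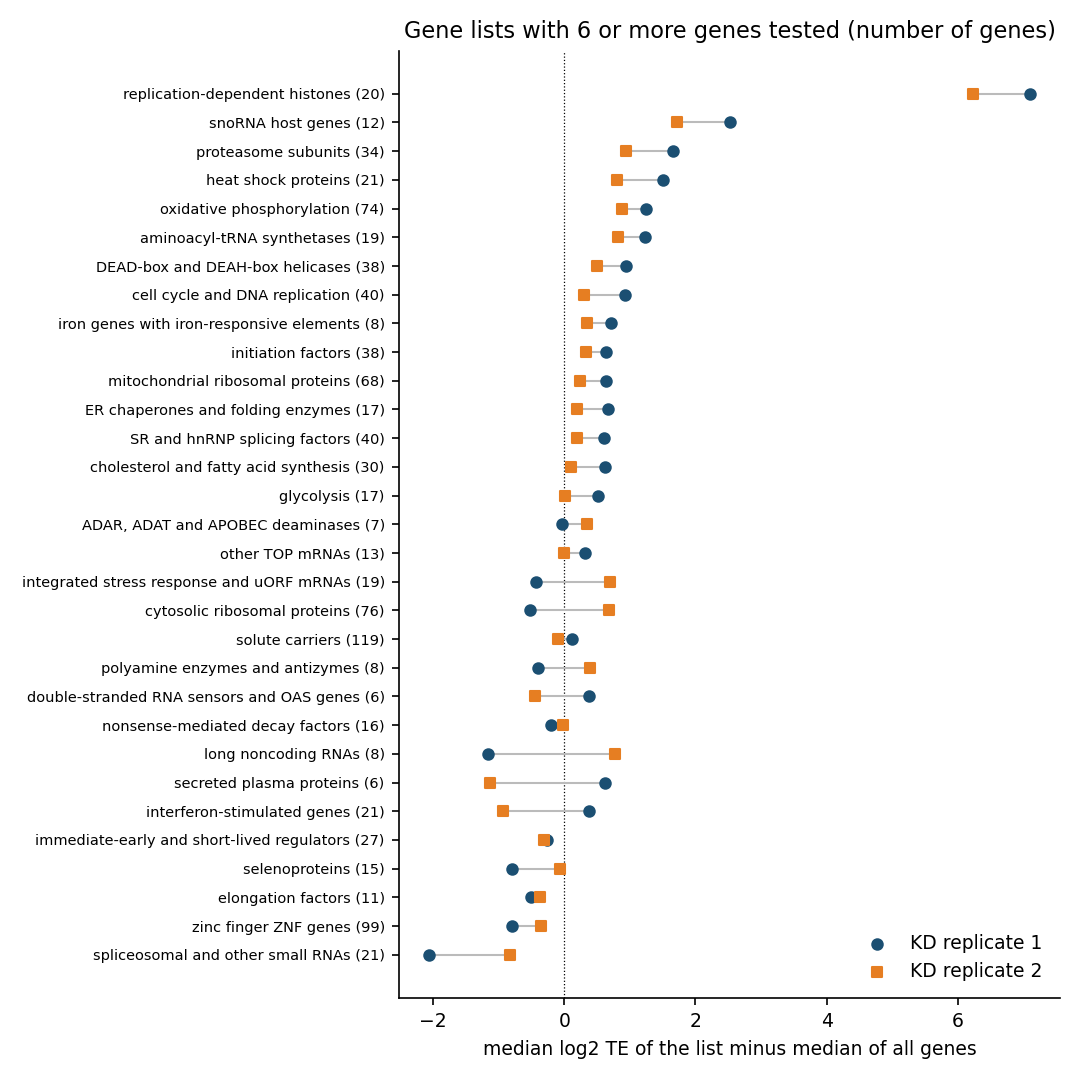
Median log2 TE of each gene list minus the median of all 7320 genes (x axis, log2 scale), with 1 point per KD replicate and the number of genes tested in brackets. Histones stand apart at 7.10 and 6.24, proteasome, heat shock and oxidative phosphorylation genes lie to the right of 0 in both replicates, and ribosomal protein and interferon-stimulated genes lie on opposite sides of 0 in the 2 replicates.

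ZNF zinc finger genes lay below the median gene, by 0.80 in replicate 1 and 0.36 in replicate 2. Of 99 ZNF genes, mostly transcriptional repressors, 19 (19.2%) were low and 3 were high, with a median log2 TE of -1.50 and -1.18. ZNF865 was the lowest with 30.5 RPKM in RNA-seq and 1.73 and 3.53 in Ribo-seq. Among 15 selenoproteins and related genes, 3 were low and none was high, with a median 0.80 below the median gene in replicate 1 and 0.06 below it in replicate 2. GPX4, the lipid peroxidase, had 478 RPKM in RNA-seq and 32.7 and 83.2 in Ribo-seq (-3.83 and -2.51), and GPX1 385, 57.2 and 45.0 (-2.73 and -3.07). Of 27 immediate-early genes, 3 (11.1%) were low, close to the background, and none was high. Their median was 0.26 and 0.31 below the median gene, and with RNA-seq of at least 20 RPKM or Ribo-seq scaled to the coding length the mean of both replicates turned to 0.05 and 0.14 above it, respectively. The lowest was SOCS3, a cytokine inhibitor, with -2.44 and -2.83. Genes of the integrated stress response and mRNAs with upstream reading frames had 2 high and 2 low among 19. ASNS, asparagine synthetase, was highest with 9.03 RPKM in RNA-seq and 28.5 and 47.9 in Ribo-seq. ATF5 had the same low value in both replicates, -2.58 and -2.58, whereas ATF4, the main effector of the integrated stress response, had 166 RPKM in RNA-seq and 14.8 and 68.9 in Ribo-seq (-3.41 and -1.26).

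Interferon-stimulated genes and sensors of double-stranded RNA are of interest because ADAR1 restrains the sensing of self RNA. Of 21 interferon-stimulated genes tested, 1 was high and 1 was low, and the median log2 TE was -0.33 in replicate 1 and -1.75 in replicate 2, which is 0.38 above and 0.93 below the median gene. IFI27 had 63.9 RPKM in RNA-seq and 75.3 in replicate 1 but 0.638 in replicate 2. ISG15, a ubiquitin-like modifier, had 540, 331 and 69.9 RPKM (-0.70 and -2.93), and IFI6 had 367, 341 and 35.8 (-0.10 and -3.32). IFIH1, which encodes the sensor MDA5, had 5.06, 21.0 and 2.31 RPKM (1.86 and -0.87), and OAS1, an oligoadenylate synthetase, had 34.8, 58.0 and 2.72 (0.72 and -3.27). In these 5 genes, chosen after their values were seen, replicate 1 was at or above the median gene and replicate 2 below it. Of the 21 interferon-stimulated genes, however, 3 were above the median gene in both replicates and 5 below it in both. B2M, the light chain of MHC class I, was the highest of the list with 417 RPKM in RNA-seq and 1969 and 554 in Ribo-seq (2.24 and 0.41). Of 46 secreted proteins of plasma in the table only 6 were tested, with a median 0.62 above the median gene in replicate 1 and 1.13 below it in replicate 2. C3, a complement component, was lowest at 44.1 RPKM in RNA-seq, 36.7 in replicate 1 and 0.245 in replicate 2, and A2M, a protease inhibitor, was highest and above the median gene in both replicates, by 1.29 and 0.64.

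Among all genes with a protein in the reference tables, 14 of the 15 with the highest TE (by the lower of both replicates) were replication-dependent histones. The exception was SEC61G, a subunit of the channel through which secretory proteins enter the endoplasmic reticulum, with 12.2 RPKM in RNA-seq and 466 and 310 in Ribo-seq. Its log2 TE was 5.14 and 4.55, and the limma estimate, on the same zero as for HIST1H3B, was 5.41 ± 0.85 (SE) with an adjusted p of 0.368. At the low end, PPP1R14B, an inhibitor of protein phosphatase 1, had 364 RPKM in RNA-seq and 5.05 and 24.4 in Ribo-seq (-5.91 and -3.84). METRNL, a secreted factor, had 104, 7.48 and 7.80 RPKM (-3.63 and -3.58), with a limma estimate of -3.04 ± 0.52 (SE) and an adjusted p of 0.372. PTMS, parathymosin, had 1507, 86.1 and 179 RPKM (-4.11 and -3.06), and PHLDA3, an inhibitor of AKT signalling, had 272, 31.3 and 21.9 (-3.08 and -3.58). The other 10 of the 15 lowest were CSAG1, NPB, FAM108A1, C9orf140, C17orf96, PPP1R12C, KIFC2, C1QL1, CTXN1 and C1orf35, with FTH1 as the remaining one, and a median of 9 reads stood behind the 15 genes in replicate 1. Adjusted p-values of these 15 were between 0.372 and 0.379 in limma.

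Most of the lowest genes had a high GC content. The 15 lowest coding genes had a median GC content of 66.5% (12 of 15 over 60%), while the median transcript tested had 52.3%. Across the 6953 genes with a transcript, GC content and log2 TE had a Spearman correlation of -0.70 in replicate 1 and -0.75 in replicate 2, as a description across genes of the same libraries. In the lowest of 5 equal groups of genes by GC content (30.7 to 43.5%), the median was 1.45 and 1.23 above the median gene, and 54.0% were high and 0.144% low. In the highest group (60.3 to 76.0%), it was 1.10 and 0.91 below, and 0.288% were high and 32.5% low. The control libraries showed the same order, with medians of 1.41 and 0.79 in the lowest group and of -0.96 and -0.40 in the highest. RNA-seq and Ribo-seq libraries differ in how fragments were made, and whether this relation lies in the libraries or in translation was not tested.

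**Figure D5:**
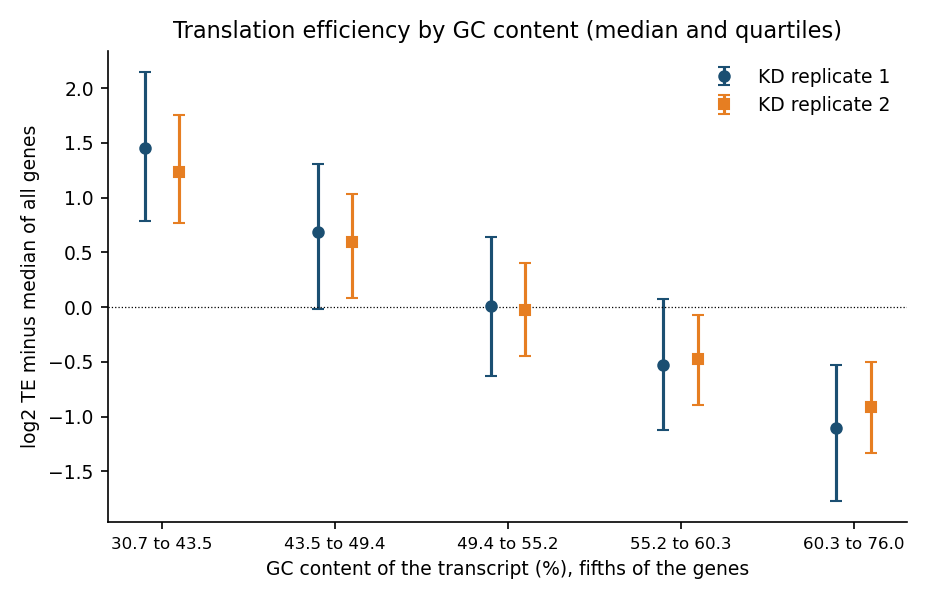
Log2 TE minus the median of all genes (y axis) in 5 equal groups of the 6953 genes by GC content of the canonical transcript (x axis, %), with points at the median and bars from the lower to the upper quartile, for each KD replicate. Medians go from 1.45 and 1.23 in the lowest group to -1.10 and -0.91 in the highest.

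Since GC content moved with TE, each gene was also compared with the median of its GC group, with the genes divided into 10 equal groups by GC content. By this measure 268 of 6953 genes (3.85%) were high and 242 (3.48%) low in both replicates. All 18 histones with a transcript remained high, with medians of 7.50 and 6.54 above their GC group. Metallothioneins had 3 of 4 high, led by MT1X with 8.44 RPKM in RNA-seq and 67.0 and 62.8 in Ribo-seq, and snoRNA hosts 7 of 10. Oxidative phosphorylation genes had medians of 0.85 and 0.67 above their GC group with 15 of 70 high and 1 low, proteasome subunits 1.22 and 0.62 with 6 of 34 and none, and aminoacyl-tRNA synthetases 1.05 and 0.53 with 3 of 15 and none. These last 3 lists stayed above the median of their GC group, by less than above the median gene. Other lists had few high genes by this measure, under which the share of all genes called high was itself lower (3.85% against 15.2%). The number of high genes went from 10 of 21 to 1 of 20 in heat shock proteins (with medians of 0.66 and 0.06 relative to the GC group), from 11 of 38 to 1 in DEAD-box and DEAH-box helicases (0.19 and -0.07) and from 9 of 38 to 2 of 37 in initiation factors, where 3 were low (0.07 and 0.09). In mitochondrial ribosomal proteins it went from 19 of 68 to 3 of 67, with 3 low, while the medians were alike, 0.63 and 0.24 relative to the median gene and 0.58 and 0.30 relative to the GC group. In cell cycle and DNA replication genes it went from 11 of 40 to 2 of 38, with medians of 0.93 and 0.30 before and 0.93 and 0.14 after. SR and hnRNP splicing factors, with a median GC content of 43.1%, went from 0.60 and 0.20 above the median gene to 0.23 and 0.41 below their GC group, with 1 of 37 high and 7 low. ZNF genes went to 0.44 and 0.01 below, with 1 of 97 high and 2 low.

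Length and the level of the mRNA had weaker relations. Transcript length had a Spearman correlation of 0.01 and 0.09 with log2 TE and protein length of -0.02 and -0.09. The coding share of the transcript had -0.01 in replicate 1 and -0.19 in replicate 2, and the length of the 5′ UTR -0.17 and -0.07. The length of the 3′ UTR had 0.04 and 0.18, and in the longest of 5 equal groups the median was 0.22 and 0.45 above the median gene, with 20.7% high and 4.45% low. In the group with the longest 5′ UTR among 5 equal groups (269 to 2252 bases), the median was 0.34 and 0.11 below the median gene, and in the shortest group 0.24 and 0.05 above it. The RNA-seq level had -0.25 and -0.37, with 27.9% high and 2.94% low in the least abundant of 5 equal groups of mRNAs and 5.53% and 18.0% in the most abundant. This level is also the denominator of TE, which by itself gives a negative relation.

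To ask whether TE in KD differed from that in control cells, the interaction of assay and condition was tested in the same fit. No gene passed an adjusted p of 0.05 in limma in either direction (0% higher and 0% lower of 7320), 1 gene had an unadjusted p under 0.05, and the smallest adjusted p was 1.00. That gene was MIR1281, at 0 in both KD Ribo-seq libraries and at 18.6 and 22.3 RPKM in control Ribo-seq, with 27.6 and 34.1 RPKM in KD and control RNA-seq. The fit had no term for the replicate number, so that differences between Ribo-seq replicates 1 and 2 entered its error. The lack of calls is therefore no evidence that TE was alike in KD and control. A fit with a replicate block is described below and gave other counts. Among the coding genes named for a rise in KD, RSRC1, a splicing regulator, had a log2 TE of 1.51 and 1.22 in KD and of 0.26 and -0.51 in control. C1orf182 had 1.66 and 1.34 in KD and 0.16 and 0.06 in control, an interaction of 1.31 ± 0.67 (SE) with an adjusted p of 1.00 in limma. The histones had medians of 6.72 and 4.72 in control against 6.39 and 5.42 in KD, so that the values of both conditions overlap.

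By the same rule of at least 1 on the log2 scale, 498 of the 7320 genes (6.80%) were high and 209 (2.86%) low in both control replicates. The sets of both conditions shared 475 high genes, which is 42.8% of the KD set and 95.4% of the control set, and 171 low genes, 23.4% and 81.8%. The control replicates differed more from each other, with a Pearson correlation of 0.51 across genes.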

How the data were processed

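RNA-seq and Ribo-seq values were taken from 1 table of 6 libraries deposited by the authors, and 8 PARS-seq libraries of the series were not used here. The deposited RPKM values were made by the authors by trimming (cutadapt), local alignment to hg19 with Bowtie2, keeping uniquely aligned reads and counting with coverageBed over RefSeq transcripts, and no strand option is named. Read totals are not given in the sources used here. The RPKM of Ribo-seq covers whole transcripts, UTRs included, and the single KD RNA-seq library is the denominator of both KD replicates.

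Genes with at least 5 RPKM in KD RNA-seq were kept, and log2 TE was computed with a pseudocount of 1, so that fold changes of low genes are understated. Read numbers were estimated from the steps of RPKM, whole for 7306 of 7320 genes, and intervals from them would cover counting error only. limma 3.58.1 (R 4.3.3, with a trend) was fitted on log2(RPKM + 1) of the 6 libraries centred on their medians, without a replicate block, and p-values were adjusted by Benjamini-Hochberg over all genes. The scripts were tested on simulated data. Rows that merge several gene symbols (511 of those tested) are named by their main gene. GC content, lengths and sequences came from GENCODE canonical transcripts (GRCh37), found for 6953 genes. Python 3.11.15, numpy 2.4.6, pandas 2.3.3 and matplotlib 3.10.9 were used.

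Genes named are the 15 coding genes whose lower value over both KD replicates was highest and the 15 whose higher value was lowest, 6 and 6 other rows by the same ranking, the highest, middle and lowest member of each list, ADAR, and the 3 genes in each direction with the smallest unadjusted p of the interaction. Every other gene named was chosen after its values were seen. The members and lists were chosen with earlier results of these data known. Alternatives changed the pseudocount, the filter on low values, the centring, the trend, the libraries and the replicate block. Centring within 10 groups by GC content, a minimum of 100 reads, the fold rule, the features and the other histone genes were added after seeing the data. A few genes are not reported here.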

Additional observations from a re-analysis of the deposited data

Results flagged for a closer look

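Among the genes considered of those named for the smallest unadjusted p of the interaction, 1 had all KD libraries on one side of the median TE and all control libraries on the other. Only genes with at least 5 RPKM in control RNA-seq as well were considered, a condition added after the data were seen, since the pseudocount sets the control value of genes below it. This condition left out named genes that lay below the median in KD and above it in control. RPL23P8, a ribosomal protein pseudogene, had log2 TE of 1.10 and 0.70 relative to the median in KD and of -0.55 and -1.01 in control, an interaction of 1.62. The opposite sides as such were not tested, and the interaction had an adjusted p of 1.00 in limma. It had 17.4 RPKM in KD RNA-seq and 23.1 and 15.9 in KD Ribo-seq, with 23.99 and 9.60 and 5.75 in control, so that the estimate rests on 17 and 20 KD Ribo-seq reads. In all, 71 of the 7035 genes with at least 5 RPKM in both RNA-seq libraries (1.01%) had KD and control libraries on opposite sides of the median in this way.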

How the results depend on the processing

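The count of genes called by limma depended on the filter and the libraries. With no filter on low values 66 genes were called above the zero of limma and 3 below, with a filter on the mean of all 6 libraries 39 above, with the KD libraries only 27 above and 1 below, and with over 100 reads in the 3 KD libraries (chosen after seeing the data) 9 above. Leaving out 1 Ribo-seq library at a time, where the lone library of a group is assumed to vary like the others, gave 24 to 28 above and 2 to 31 below. The pseudocounts, RPKM minimums, other centrings and the fit without a trend left both counts at 0, and the cause of the other counts was not tested. For the interaction, the replicate block gave 3 genes lower in KD (LOC100271831, MIR1281 and MIR4746) and none higher, against 0 without it. Control and KD share replicate numbers in Ribo-seq, and the deviations of same-numbered libraries had a correlation of 0.82 across genes, but with 2 pairs the number is not shown to pair cultures. Leaving out 1 library called no interaction.

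The fold rule (added after seeing the data) called 730 of 7320 genes high with a pseudocount of 5 and 506 of 3692 with RNA-seq of at least 20 RPKM. It called 268 of 6953 high within GC groups and 1436 to 1768 of 7320 from 1 replicate alone. Low genes were 1300 of 10894 with at least 1 RPKM, 277 of 3692 with at least 20 RPKM and 1109 of 6858 with Ribo-seq scaled to the coding length. They were 242 of 6953 within GC groups and 1125 to 1588 of 7320 from 1 replicate alone. Relative to the median gene, the histone median (mean of both replicates) was 5.95 with a pseudocount of 5, 4.92 with at least 20 RPKM and 5.89 with the coding length. It was 0.91 for snoRNA hosts with at least 20 RPKM and 0.76 for oxidative phosphorylation within GC groups. From 1 replicate alone it was 6.24 to 7.10 for histones, 1.73 to 2.52 for snoRNA hosts, 0.94 to 1.65 for the proteasome, 0.89 to 1.24 for oxidative phosphorylation, 0.82 to 1.23 for synthetases, -0.52 to 0.69 for ribosomal proteins and -0.93 to 0.38 for interferon-stimulated genes. The GC correlation was -0.66 with at least 20 RPKM, -0.78 with the coding length and -0.75 to -0.70 from 1 replicate alone. Of 36 lists, 18 changed sign under some setting, and none did without the chromosome 6 genes. Of 146 named genes, 16 changed sign under some setting. One RNA-seq library per condition and few Ribo-seq reads limit all estimates, the low ones most.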

Other observations

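Other lists lay nearer to the median. Metabolic enzymes of glycolysis had a median of 0.51 and 0.02 relative to the median gene over 17 genes, with 2 high and none low. LDHB, a lactate dehydrogenase subunit, had 124 RPKM in KD RNA-seq and 704 and 361 in Ribo-seq (log2 TE 2.50 and 1.53). PGAM1, phosphoglycerate mutase, had 35.5 and 0.414 and 12.1 (-4.69 and -1.48). Its Ribo-seq values rest on 1 read in replicate 1 and 50 in replicate 2. PGAM1 has 13 named pseudogenes, so that its level from uniquely aligned reads is uncertain. Enzymes of cholesterol and fatty acid synthesis had 6 high and 1 low among 30, with MVD, of the mevalonate pathway, lowest at -1.83 and -2.39. Solute carriers had 19 high and 11 low among 119, with SLC38A2, an amino acid transporter, highest at 3.13 and 1.54. SLC5A2, a glucose transporter, had 26.6 RPKM in KD RNA-seq, was listed at 0 in replicate 1 and had 6.14 RPKM in replicate 2. Factors of nonsense-mediated decay had 2 high and 2 low among 16, with NCBP1, of the cap-binding complex, at 1.65 and 0.69 and SMG5 at -2.76 and -2.10. Chaperones of the endoplasmic reticulum had 5 high and none low among 17, with HSP90B1 highest at 1.55 and 1.06. Among polyamine genes, AZIN1, an inhibitor of antizyme, was highest with 1.27 and 1.00, and OAZ1, antizyme itself, which is made by a frameshift, was lowest with -2.78 and -1.68.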
